A study of Mus musculus with 6 samples.

Results

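Expression of 10 genes of the hypoxia-inducible factor (HIF) pathway was examined in mouse natural killer (NK) cells, lymphocytes of innate immunity that kill infected or transformed cells. The genes were chosen by symbol and comprise the HIF alpha subunits Hif1a and Epas1, the prolyl hydroxylases Egln1, Egln2 and Egln3, the ubiquitin ligase gene Vhl and the target genes Vegfa, Pdk1, Bnip3 and P4ha1. All 10 were measured, among 19943 genes in all, by 11 probe sets, with 2 for Bnip3 and 1 for each of the others. The 6 Affymetrix arrays held 3 preparations of IL-18 generated NK cells and 3 of unstimulated NK cells, which the design text describes as independent. IL-18 generated cells had been cultured overnight with IL-18 at 25 ng/ml and IL-2 at 300 IU and were then sorted as c-kit positive and CD11b negative. Unstimulated cells were sorted as c-kit negative and CD11b positive. Every sample came from NK1.1 isolation and from live cells positive for NK1.1 and negative for CD3, with no genotype, strain or age given in the sources used here. The labels repeat 1 culture text for all samples and do not say whether unstimulated cells were cultured, and with which additions. The effects of IL-18, IL-2, culture and sorting gate therefore cannot be told apart. The p-values set the difference between groups against the spread of these 6 arrays within their groups.

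HIF is a transcription factor made of an oxygen-regulated alpha subunit and a stable beta subunit. In the presence of oxygen, prolyl hydroxylases modify the alpha subunit, the VHL protein binds the modified form, and the subunit is degraded. When hydroxylation fails, the alpha subunit accumulates, pairs with the beta subunit and switches on genes for glucose uptake, glycolysis, blood vessel growth and mitochondrial adaptation. In lymphocytes, growth factor and cytokine signalling is also known to raise HIF under normal oxygen, and transcript levels of Hif1a do not report the amount of its protein, which is set largely by degradation.

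The promoters of the 4 members that were higher in IL-18 generated cells are printed here because HIF binds a short core sequence near many of its target genes. Windows of 300 bases, 250 before and 50 after an annotated start, came from RefSeq (GRCm38.p6), where 9 of the 10 members had at least 1 window and Epas1 was not listed. Where a gene had several, the window nearest to its annotated 5′ end was taken. Capitals mark ACGTG or GCGTG, the letters of the HIF core, on either strand.
Hif1a, chr12:73907617-73907916, plus strand: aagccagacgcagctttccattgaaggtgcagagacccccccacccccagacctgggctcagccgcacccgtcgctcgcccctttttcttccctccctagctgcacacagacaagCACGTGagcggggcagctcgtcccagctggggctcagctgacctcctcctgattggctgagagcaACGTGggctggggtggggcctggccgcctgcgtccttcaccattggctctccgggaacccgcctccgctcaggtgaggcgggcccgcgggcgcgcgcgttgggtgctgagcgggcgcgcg
Vegfa, chr17:46032328-46032627, minus strand: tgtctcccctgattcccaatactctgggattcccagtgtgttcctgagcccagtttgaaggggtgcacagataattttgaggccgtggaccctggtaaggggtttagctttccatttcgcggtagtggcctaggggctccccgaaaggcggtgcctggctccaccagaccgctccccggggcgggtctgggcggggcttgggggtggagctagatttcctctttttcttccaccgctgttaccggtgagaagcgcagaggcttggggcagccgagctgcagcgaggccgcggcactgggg
Pdk1, chr2:71872974-71873273, plus strand: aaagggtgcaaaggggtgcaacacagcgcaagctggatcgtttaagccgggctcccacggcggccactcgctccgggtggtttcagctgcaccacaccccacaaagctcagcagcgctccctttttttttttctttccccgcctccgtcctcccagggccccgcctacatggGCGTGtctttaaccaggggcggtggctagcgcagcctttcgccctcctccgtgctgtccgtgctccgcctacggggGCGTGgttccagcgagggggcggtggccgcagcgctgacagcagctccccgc
Egln3, chr12:54203825-54204124, minus strand: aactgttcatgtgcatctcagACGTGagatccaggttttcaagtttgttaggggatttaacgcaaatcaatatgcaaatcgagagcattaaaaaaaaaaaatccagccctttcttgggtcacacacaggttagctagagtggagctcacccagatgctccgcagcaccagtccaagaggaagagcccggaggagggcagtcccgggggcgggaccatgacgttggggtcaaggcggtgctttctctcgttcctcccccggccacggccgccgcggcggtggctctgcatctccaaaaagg
The Hif1a window held 3 matches, all of ACGTG, in 2 stretches, since 2 of the matches overlap on opposite strands within CACGTG, a sequence that factors such as MYC also bind. The Pdk1 window held 2 matches of GCGTG, the Egln3 window 1 of ACGTG, and the Vegfa window had 0. Sequence outside the windows was not searched, so a window with 0 matches does not mean that the gene lacks such a site. Of the 9 members with a window, 7 had at least 1 match, the others being Vhl and Vegfa. For comparison, 43.8% of 32851 mouse promoter windows of this length held ACGTG or GCGTG (19.6% ACGTG, 32.4% GCGTG) and 7.15% held CACGTG. These shares count every window, with several for some genes, whereas only 1 was taken per member. The Hif1a window starts from a site 6543 bases inside the annotated gene and is the one given for it. A match is a run of letters and no measurement of binding, which was not assayed.

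The deposited values are log2 expression, each probe set being centred on its own median over the 6 arrays, so differences between arrays can be read and expression levels cannot. The 2 middle arrays of a probe set therefore carry equal values of opposite sign. Whether a gene with little change was expressed in either group cannot be seen. Array medians over all genes lay between -0.025 and 0.039. Markers of other cells differed between the groups: all 10 measured monocyte and macrophage markers were lower in IL-18 generated cells, with array means of -1.64 to -1.54 there and 1.45 to 1.94 in unstimulated cells. All 10 neutrophil and all 7 B cell markers were lower too (medians -2.99 and -0.62), as were all 11 NK cell markers (median -0.98). Every neutrophil marker was highest on unstimulated replicate 2, and their array means ran from 1.19 to 2.48 in that group. The 9 T cell markers had a median of -0.023, with Cd3d, Cd3e and Cd3g higher. The 10 endothelial markers had a median of -0.063, with Pecam1 higher and Cldn5 lower, and of 4 measured erythroid markers 1, Slc4a1, was lower. With centred values, which of these markers are expressed at all cannot be read.

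In IL-18 generated cells Vegfa and Hif1a were each more than 3-fold higher than in unstimulated cells. Pdk1 rose 1.58-fold and Egln3 1.25-fold, whereas Epas1 fell. Egln1, Egln2, Vhl, Bnip3 and P4ha1 did not pass the test, which was limma's moderated test with Benjamini-Hochberg adjustment over all 19943 genes at an adjusted p below 0.05. Of the 10 members, 4 rose and 1 fell, where 19.7% of all genes rose and 16.7% fell (36.4% in either direction). Of the members, Hif1a and Vegfa also reached a 2-fold change and 0 fell by as much, a bound passed upwards by 3.62% of all genes, downwards by 3.24% and in either direction by 6.86%. The median change of the members was 0.22 on the log2 scale, beside -0.064 over all genes. The values of the groups did not overlap for 7 members, 5 with the IL-18 arrays above and 2 with them below. Among all genes the groups did not overlap for 48.6%, with 22.9% above and 25.7% below. The dot plot of the members by array shows each of these values.

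**Figure D1:**
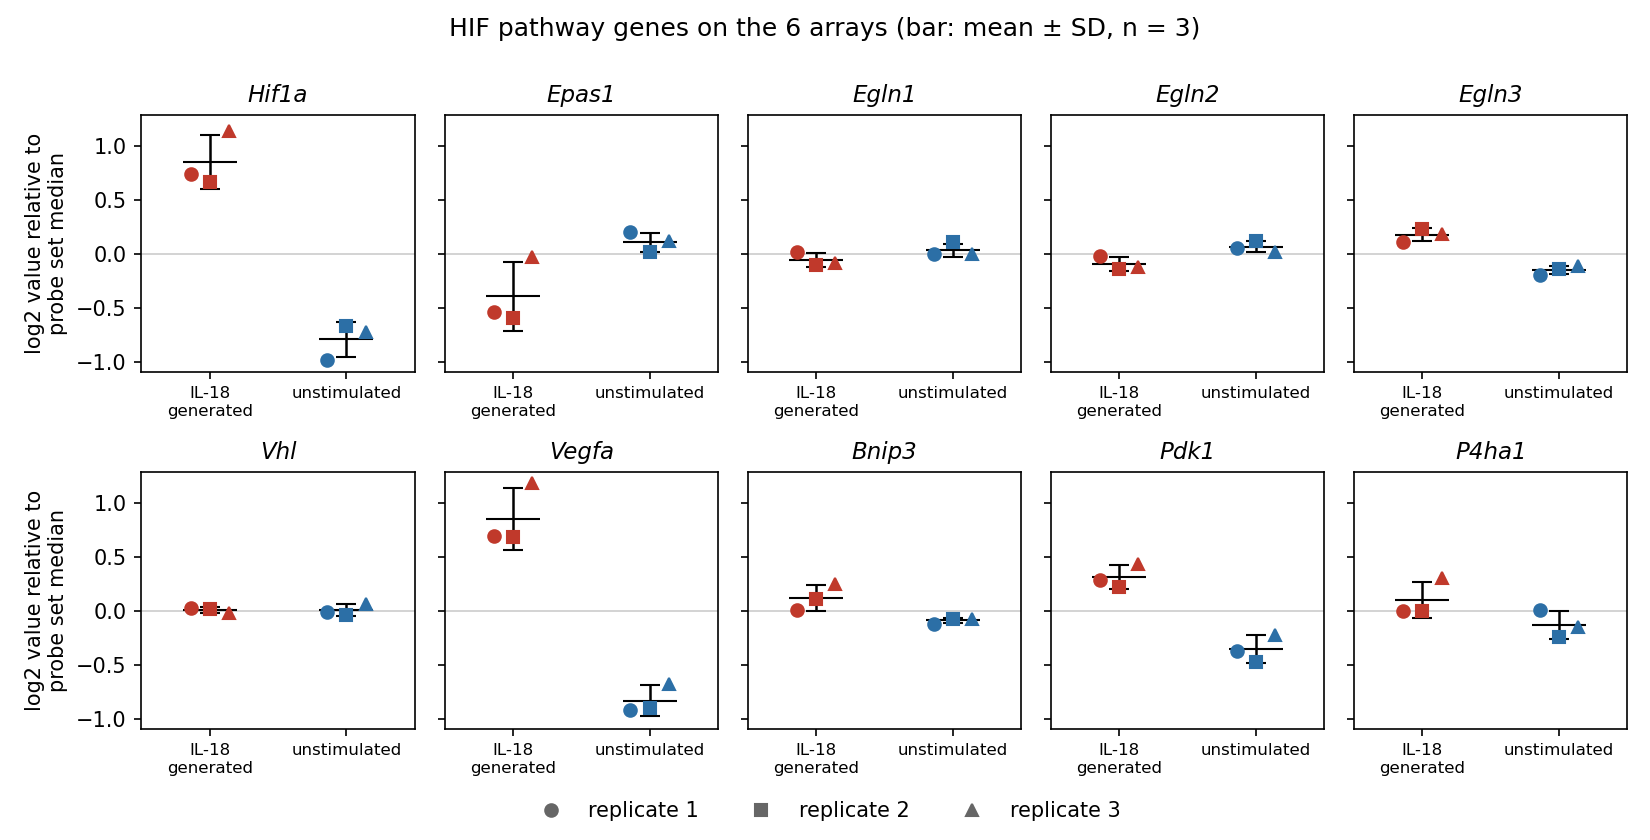
Log2 value of each of the 10 HIF pathway genes relative to its probe set median (vertical axis) on the 3 IL-18 generated (red, left) and 3 unstimulated (blue, right) arrays, with marker shapes for the replicates and black bars for mean ± SD. Hif1a and Vegfa lie at 0.67 or above on every IL-18 generated array and at -0.67 or below on every unstimulated one, while Egln1 and Vhl stay near 0 on all 6.

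Among the alpha subunits, Hif1a encodes the subunit found in most cell types. It stood at 0.74, 0.67 and 1.14 on the IL-18 generated arrays, against -0.98, -0.67 and -0.72 on the unstimulated arrays. The groups were far apart compared with their spread, with the highest value on IL-18 generated replicate 3. The log2 change was 1.64 ± 0.13 (SE, n = 3 arrays per group, as below), or 3.12-fold, with a limma adjusted p of 4.08e-06. This was the increase of rank 199 among the 19943 genes. The gene lies on chromosome 12 (GRCm38.p6, 73901324 to 73947554).

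Epas1 encodes the other oxygen-regulated alpha subunit, known as HIF-2alpha, which is prominent in endothelial cells and macrophages. Its values were -0.54, -0.59 and -0.023 on the IL-18 generated arrays, against 0.20, 0.023 and 0.12 on the unstimulated arrays. The groups did not overlap, but IL-18 generated replicate 3 lay close to unstimulated replicate 2. The log2 change was -0.50 ± 0.14, with a 95% interval of -0.80 to -0.19 and a limma adjusted p of 0.0158. The call ended without IL-18 replicate 1 (-0.42, limma adjusted p 0.0591), without IL-18 replicate 2 (-0.40, 0.0641) and without unstimulated replicate 1 (-0.46, 0.0658). Over its 14 alternatives apart from those on fold size, limma's adjusted p ran from 0.000276 to 0.0658. Monocyte and macrophage markers fell on the same arrays (10 of 10 measured, median -3.05), and their part in the change of Epas1 was not tested. Of the 10 endothelial markers 8 did not pass. In bulk RNA, fewer cells of a type and less RNA per cell cannot be told apart. Epas1 lies on chromosome 17 (86753864 to 86833410).

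The 3 prolyl hydroxylases mark the alpha subunits for degradation. Egln3, itself a known HIF target gene, was at 0.11, 0.23 and 0.19 on the IL-18 generated arrays, against -0.19, -0.14 and -0.11 on the unstimulated arrays. All IL-18 generated arrays were above all unstimulated ones, by a small margin that exceeded the spread within groups. The log2 change was 0.32 ± 0.073, or 1.25-fold, with a limma adjusted p of 0.00511. Egln1, the main oxygen-sensing hydroxylase in most tissues, had 0.020, -0.098 and -0.083 on the IL-18 generated arrays, against -0.00039, 0.11 and 0.00039 on the unstimulated arrays. These overlapped, and the log2 change of -0.089 had a 95% interval of -0.26 to 0.079 (limma adjusted p 0.388). Without unstimulated replicate 2 the change was -0.054. Egln2 stood at -0.022, -0.14 and -0.12 on the IL-18 generated arrays, against 0.053, 0.12 and 0.022 on the unstimulated arrays. Its groups did not overlap, yet the change of -0.16 (95% interval -0.33 to 0.005) missed the threshold with a limma adjusted p of 0.121. Egln3 lies on chromosome 12 (54178981 to 54203874), Egln1 on chromosome 8 (124908587 to 124949254) and Egln2 on chromosome 7 (27158658 to 27166802).

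Vhl encodes the subunit of the ubiquitin ligase that recognises the hydroxylated alpha subunits. Its values were 0.030, 0.013 and -0.024 on the IL-18 generated arrays, against -0.013, -0.035 and 0.068 on the unstimulated arrays. The groups overlapped. The log2 change was -8.9e-05 ± 0.072, with a 95% interval of -0.16 to 0.16, far below the lower bound of 1.35 for Hif1a. Limma's adjusted p was 0.999. Vhl lies on chromosome 6 (113623994 to 113631634).

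Vegfa, the vascular endothelial growth factor and the most widely used HIF target, had the largest change of the 10. It stood at 0.69, 0.68 and 1.18 on the IL-18 generated arrays, against -0.92, -0.90 and -0.68 on the unstimulated arrays. No array of one group came near the other, and IL-18 generated replicate 3 was again the highest. The log2 change was 1.68 ± 0.13, or 3.20-fold, with a limma adjusted p of 4.36e-06, and ranked 184 among increases. The gene lies on chromosome 17 (46016993 to 46032377).

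Pdk1 encodes a mitochondrial pyruvate dehydrogenase kinase, which holds back the entry of pyruvate into the citrate cycle. It had 0.29, 0.22 and 0.43 on the IL-18 generated arrays, against -0.37, -0.47 and -0.22 on the unstimulated arrays. The groups were separate on all 6 arrays. The log2 change was 0.66 ± 0.091, or 1.58-fold (limma adjusted p 0.000211), a size below the 2-fold bound. Pdk1 lies on chromosome 2 (71873215 to 71903858).

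Bnip3 encodes a mitochondrial protein that promotes mitophagy. The mean of its probe sets was 0.0044, 0.11 and 0.25 on the IL-18 generated arrays, against -0.12, -0.071 and -0.076 on the unstimulated arrays. The groups did not overlap, but the change of 0.21 ± 0.082 missed the threshold (limma adjusted p 0.0715). The 2 probe sets disagreed. Both carry the same gene annotation, and whether either of them reads another locus could not be checked, which also limits their mean. One gave 0.06, 0.13 and 0.33 on the IL-18 generated arrays and -0.25, -0.06 and -0.14 on the unstimulated ones, a change of 0.32 ± 0.09 that passed with a limma adjusted p of 0.0208 over 21788 probe sets. The other overlapped between groups, with a change of 0.10 ± 0.08 and a limma adjusted p of 0.373. Without IL-18 replicate 1 the gene passed as well, with 0.27 and a limma adjusted p of 0.0491, and over its 15 alternatives apart from those on fold size the adjusted p ran from 0.0207 to 0.373. Bnip3 lies on chromosome 7 (138890836 to 138909506).

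P4ha1 encodes a catalytic subunit of the collagen prolyl hydroxylase, an enzyme distinct from the oxygen sensors above. It stood at -0.00085, 0.00085 and 0.30 on the IL-18 generated arrays, against 0.0078, -0.24 and -0.15 on the unstimulated arrays. Unstimulated replicate 1 lay above 2 of the 3 IL-18 generated arrays. The change of 0.23 (95% interval -0.0035 to 0.46) missed the threshold (limma adjusted p 0.116), and was 0.13 without IL-18 replicate 3 (limma adjusted p 0.395). P4ha1 lies on chromosome 10 (59323197 to 59373304). Among the 10 members, IL-18 generated replicate 3 held the highest value of its group for 6, an array that did so for 35.1% of all genes.

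**Figure D2:**
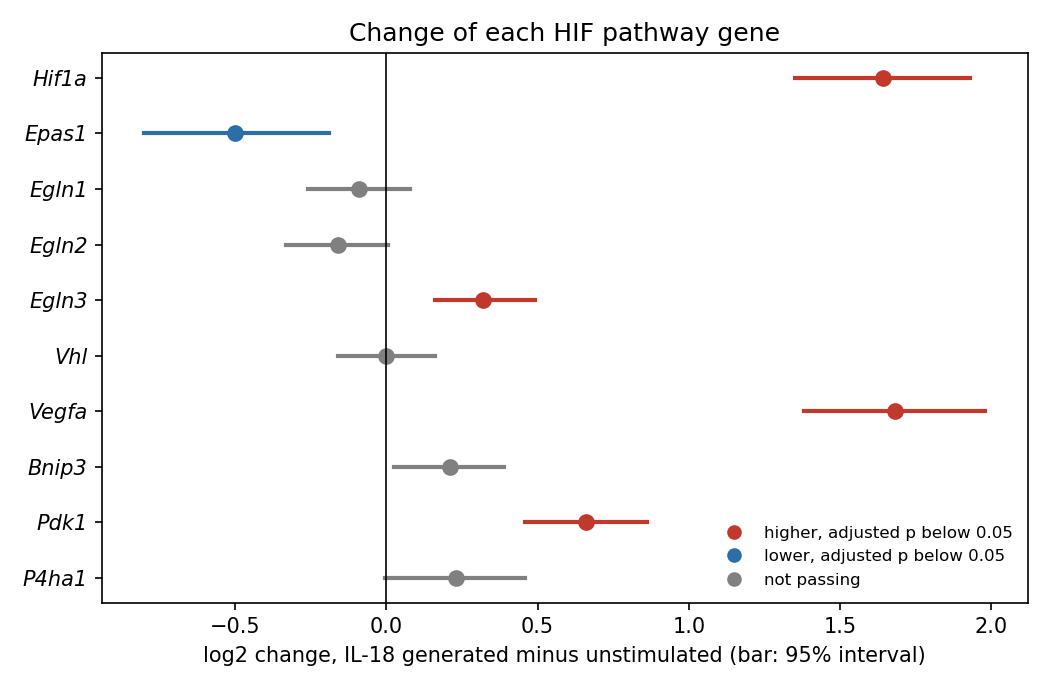
Log2 change of each HIF pathway gene (rows), IL-18 generated minus unstimulated, with its 95% interval from limma as a bar (horizontal axis), in red or blue where the adjusted p was below 0.05 and in grey where it was not. The intervals of Hif1a (1.35 to 1.93) and Vegfa (1.38 to 1.98) lie to the right of all others, and that of Epas1 lies below 0.

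Related members were then set against each other within each array, in 4 pairs. Hif1a minus Epas1 was 1.29, 1.26 and 1.16 on the IL-18 generated arrays, against -1.17, -0.69 and -0.83 on the unstimulated arrays. The 2 subunit genes thus changed by amounts that differed by 2.14 ± 0.15 (SE) on the log2 scale. Egln3 differed in its change from Egln1 by 0.41 ± 0.08 and from Egln2 by 0.49 ± 0.08, without overlap between the groups. Egln2 and Egln1, neither of which passed on its own, differed least, by -0.07 ± 0.01, and for this pair too the groups did not overlap. How often the groups do not overlap for other pairs of genes was not computed. Among single genes the share was 48.6%. For each pair the two-sided exact permutation p was 0.1, also after adjustment over the 4 pairs, which is the smallest that 3 arrays against 3 allow.

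The genes whose values lay nearest to those of Hif1a over the 6 arrays, by the root mean square of the differences, were Ctage5 (0.05), Vegfa (0.1) and Ifrd1 (0.1). Ctage5 is listed in RefSeq as an older name of Mia2. Nearest to Vegfa were Hif1a (0.1), Ifrd2 (0.11) and Timm9 (0.12). Ctage5 stood at 0.8, 0.67 and 1.04 on the IL-18 generated arrays, against -0.95, -0.67 and -0.78 on the unstimulated arrays, almost the values of Hif1a. With 2 groups on 6 arrays this measure mostly reflects the size of the group difference, and genes changed by a like amount come out as near.

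The rest of the pathway was followed in 6 lists, with 83 of 88 genes measured. Of these, 29 rose, 15 fell and 39 did not pass, beside 19.7% of all genes that rose and 16.7% that fell. The counts of each list below are to be read beside the same shares, and a count near them says nothing particular about its list. The plot of the lists shows their changes, and the plot of the largest changes gives the arrays behind them.

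**Figure D3:**
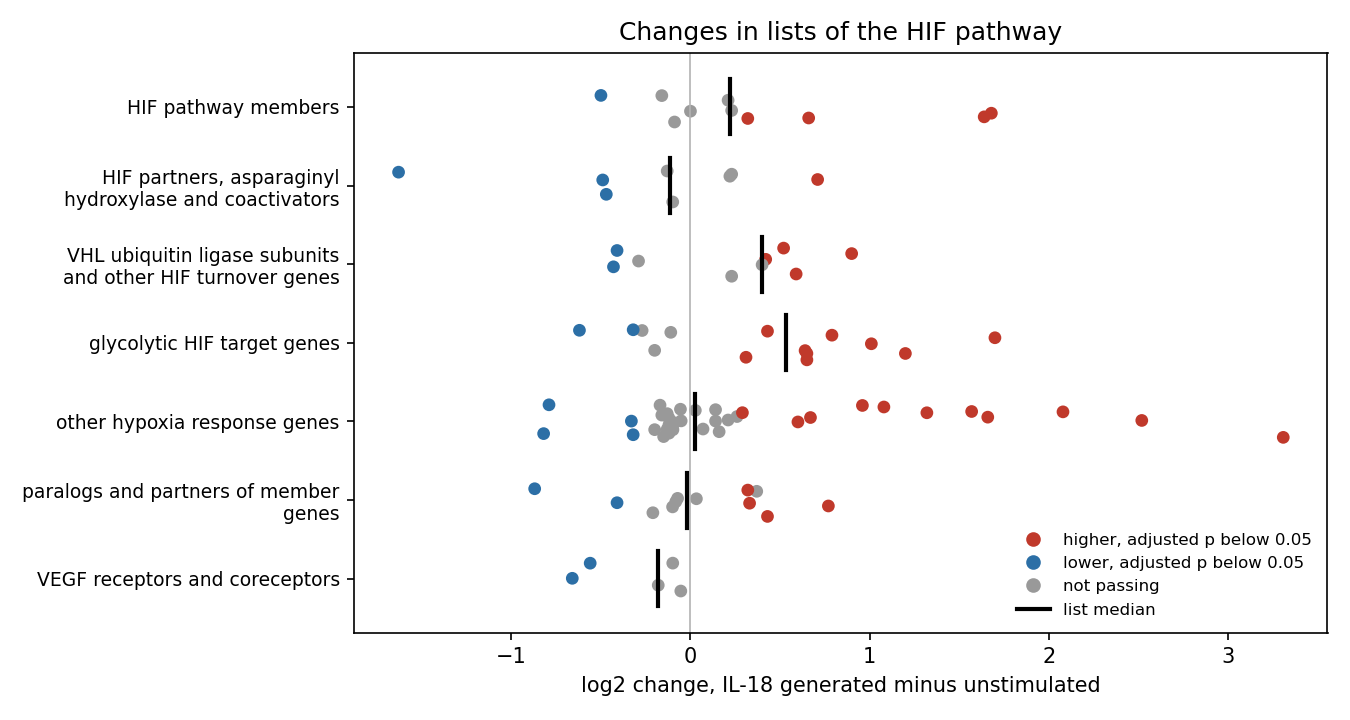
Log2 change, IL-18 generated minus unstimulated (horizontal axis), of every measured gene in the 10 members and in 6 lists of the HIF pathway (rows), with the list median as a black bar and colour for genes at an adjusted p below 0.05. The median of the glycolytic targets was 0.53, whereas the other hypoxia response genes had a median of 0.027 with a tail of increases up to 3.31.

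Of 8 HIF partners and coactivators, 3 were lower, 1 was higher and 4 did not pass. Their median was -0.11, and -0.17 without unstimulated replicate 1. Without unstimulated replicate 2, and with either other normalization or array weights, 2 were higher. Cited2, a HIF target that competes with HIF for the coactivators CBP and p300, was at -0.81, -1.0 and -0.73 on the IL-18 generated arrays, against 0.73, 0.85 and 0.79 on the unstimulated arrays. The groups were widely apart, with a log2 change of -1.63 ± 0.088 (limma adjusted p 3.41e-07). The coactivator genes Crebbp and Ep300 fell with -0.49 and -0.47. Arnt2, a paralog of the beta subunit, rose by 0.71 ± 0.13, with values of 0.48, 0.77 and 0.17 on the IL-18 generated arrays, against -0.17, -0.24 and -0.29 on the unstimulated arrays. The gene of the beta subunit itself, Arnt, did not pass (-0.099, 95% interval -0.29 to 0.094), nor did Hif1an, which encodes the asparaginyl hydroxylase that blocks coactivator binding (0.23, limma adjusted p 0.116).

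Of 9 genes for the VHL ligase complex and other HIF turnover, 4 rose, 2 fell and 3 missed the threshold. Their median was 0.40, and 0.27 without unstimulated replicate 2. The 4 that rose encode the subunits that join VHL in its ligase: Cul2, the scaffold, by 0.90 ± 0.12, the elongin genes Elob by 0.59 and Eloc by 0.42, and the RING subunit gene Rbx1 by 0.52. Cul2 stood at 0.28, 0.42 and 0.57 on the IL-18 generated arrays, against -0.72, -0.28 and -0.45 on the unstimulated arrays, with no overlap. These subunits also serve other ubiquitin ligases, and elongins act in transcription. Usp20, a deubiquitinase gene, and Os9 fell with -0.43 and -0.41.

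Glycolytic HIF targets moved mostly upwards. Of 14 measured, 9 were higher, 2 lower and 3 not past the threshold, beside 19.7% higher and 16.7% lower of all genes. The list median was 0.53. Without IL-18 replicate 1 or 2, or unstimulated replicate 3, 1 was lower, and 3 were lower without IL-18 replicate 3. The number higher was 8 without IL-18 replicate 3, unstimulated replicate 1 or unstimulated replicate 3, and with array weights. Pgk1, phosphoglycerate kinase, rose by 1.70 ± 0.083 with values of 0.77, 0.88 and 0.97 on the IL-18 generated arrays, against -0.93, -0.79 and -0.77 on the unstimulated arrays. Hk2, which encodes a hexokinase that traps glucose in the cell, rose by 1.2 ± 0.15. Slc2a1, the glucose transporter gene, rose by 0.65 and Ldha, lactate dehydrogenase, by 0.43. Pfkfb3 and Pfkfb4, whose products make the activator of phosphofructokinase, fell with -0.62 ± 0.083 and -0.32 ± 0.093. The groups of both Pfkfb genes did not overlap, and Pfkfb4 was the weaker with a limma adjusted p of 0.0207.

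The 35 other hypoxia response genes were split, with 11 higher, 4 lower and 20 not passing. Their median of 0.027 turned to -0.0019 without unstimulated replicate 2, and was 0.043 without IL-18 replicate 2 and 0.042 without unstimulated replicate 3. Tfrc, the transferrin receptor, rose by 3.31 ± 0.11, or 9.94-fold, standing at 1.5, 1.58 and 1.81 on the IL-18 generated arrays, against -1.84, -1.5 and -1.70 on the unstimulated arrays. Hmox1, haem oxygenase, rose by 2.52 ± 0.14 and Ero1a, an oxidase of the endoplasmic reticulum, by 2.08. The collagen lysyl hydroxylase gene Plod2 rose by 1.66, the cytokine gene Mif by 1.57, the carbonic anhydrase gene Car12 by 1.32 and Fam162a by 1.08. Smaller increases were those of the transcriptional repressor gene Bhlhe40 (0.96), the adenylate kinase gene Ak4 (0.67), Ddit4, an inhibitor of mTOR signalling (0.60), and Gbe1, the glycogen branching enzyme (0.29). Both Tfrc and Hmox1 are also known to respond to iron or oxidative stress through factors other than HIF. Selenbp1 and Mxi1, which encodes a MYC antagonist, fell with -0.82 ± 0.086 and -0.79 ± 0.099, beside Zfp395 with -0.33 and Plod1 with -0.32. Some of the 20 that missed the threshold are often used as hypoxia markers. Among these, Adm had a change of -0.12, Car9 of -0.20, Ndrg1 of 0.070, Ankrd37 of 0.16, Higd1a of 0.21 and Kdm3a of -0.13. Their 95% intervals reached at most 0.41 upwards, but that of Stc2, another of the 20 (change 0.26), reached 0.53.

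Paralogs and partners of the members changed unevenly, with 4 of 12 higher, 2 lower and 6 not passing (2 higher without IL-18 replicate 1). Their median of -0.019 turned to 0.024 without IL-18 replicate 3, 0.021 without unstimulated replicate 1 and 0.045 without unstimulated replicate 3, and was -0.05 without unstimulated replicate 2. Pdk2 fell with -0.87 ± 0.077, at -0.38, -0.41 and -0.52 on the IL-18 generated arrays, against 0.50, 0.43 and 0.38 on the unstimulated arrays, whereas its paralog Pdk1 rose. Pdk3 rose by 0.33, and Pdk4 did not pass (-0.072). Pdp1, a phosphatase gene that opposes these kinases, rose by 0.43 ± 0.084. Bnip3l, the paralog of Bnip3, fell with -0.41 ± 0.073. P4hb, protein disulfide isomerase and beta subunit of the collagen hydroxylase, rose by 0.77 ± 0.070, and the growth factor gene Vegfb by 0.32. Among 5 genes of VEGF receptors and coreceptors 2 fell in limma's test and the highest change was -0.054, so that 0 rose at any threshold. Those that fell were Flt1 with -0.66 ± 0.13 and Nrp1 with -0.56 ± 0.14. Flt1 had -0.36, -0.15 and -0.39 on the IL-18 generated arrays, against 0.15, 0.28 and 0.66 on the unstimulated arrays. Monocytes are known to express both, their markers fell on the same arrays (median -3.05), and the part of these in the result was not tested.

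**Figure D4:**
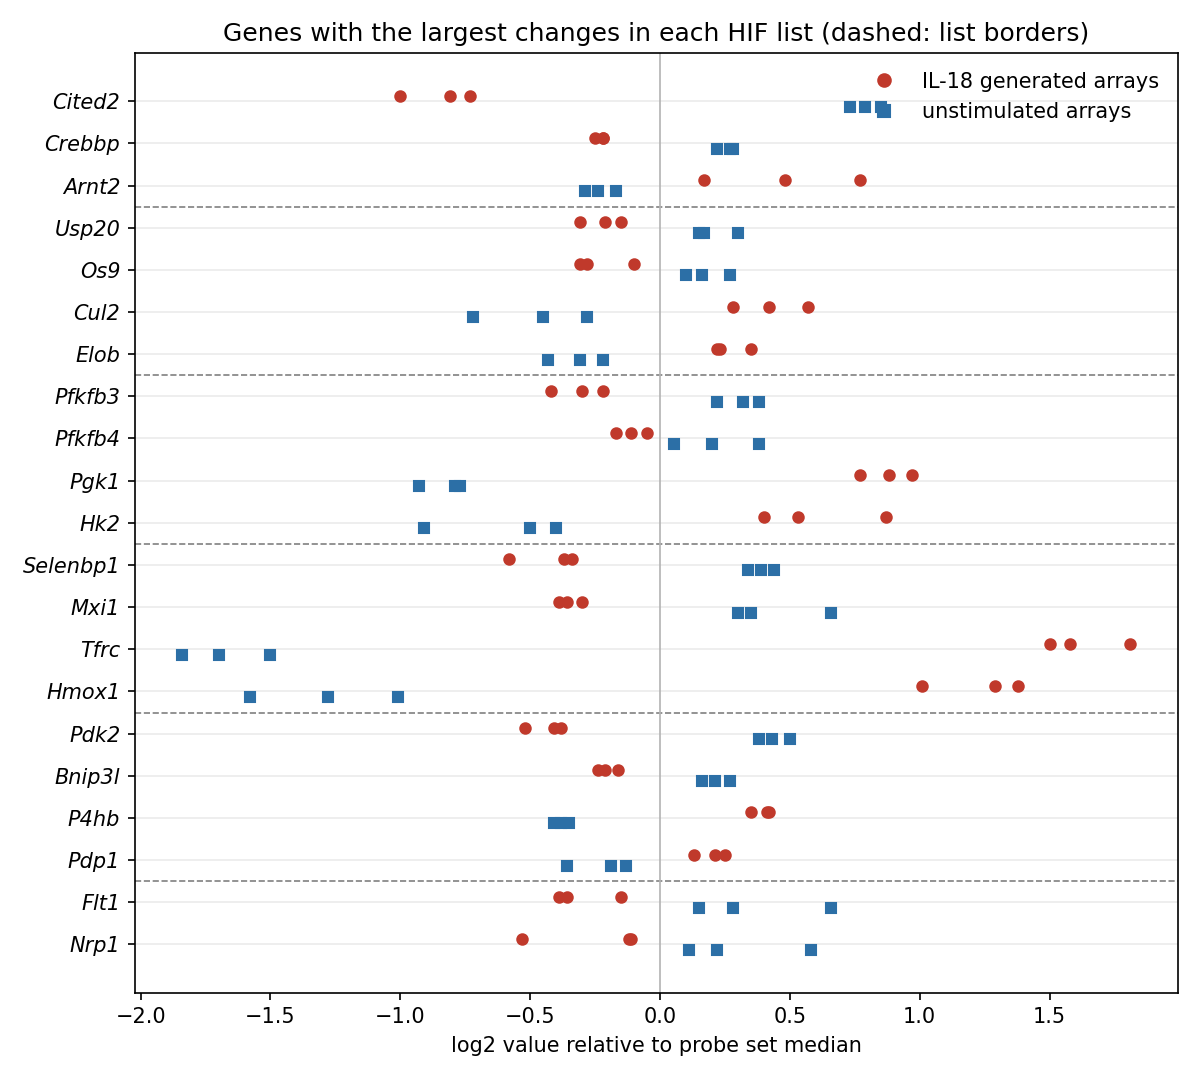
Log2 value relative to the probe set median (horizontal axis) on the 3 IL-18 generated (red circles) and 3 unstimulated (blue squares) arrays for up to 2 of the strongest increases and 2 of the strongest decreases in each of 6 HIF lists (rows, lists separated by dashed lines). The groups do not overlap for any gene drawn, which were taken by adjusted p and size, and Tfrc and Hmox1 are the farthest apart.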

How the data were processed

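Total RNA of 6 NK cell preparations was labelled with biotin and hybridised to Affymetrix arrays, per the labels' protocols. The deposited table holds the authors' log2 values for 28815 probe sets. The sources used here do not give how they were summarised and normalised. Each probe set is centred on its median over the arrays (largest departure 5e-07). The log base was read from the values: for 31.8% of probe sets, the values fell within 0.15 of a step on the single-precision spacing used between 8 and 16, where 0.24% would by chance. Natural logs from a 16-bit scanner allow a range of 3.09 at that spacing, which 44 such probe sets exceeded. Probe sets with 1 gene symbol in the platform annotation (21788) were averaged per gene, while 1597 had several symbols and 5430 were not listed.

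All 19943 genes were fitted with limma 3.58.1 in R 4.3.3 (lmFit, eBayes, no covariate), and p-values were adjusted by Benjamini-Hochberg. The code of the fit was run on simulated data with known changes and independent noise. That setting is simpler than these data, and no result here rests on it. Pairs of members were compared by exact permutation. Tables and figures used Python 3.11.15, pandas 2.3.3, numpy 2.4.6, scipy 1.17.1 and matplotlib 3.10.9. Alternatives covered the variance model, normalization, array weights, the replicate number as a block, each array left out, probe set choice and fold thresholds. Precision is limited by the number of arrays, and detection calls were not used here.

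The members and lists were chosen with earlier results of these data known. List genes were looked up by symbol, gene identifier or synonym, and 144 of 156 were measured. Named were all members, up to 2 largest increases and 2 largest decreases that passed in each pathway list, and the 3 genes nearest to Hif1a and to Vegfa. Ep300, Arnt, Hif1an, Eloc, Rbx1, Slc2a1, Ldha, Ero1a, Plod2, Mif, Car12, Fam162a, Bhlhe40, Ak4, Ddit4, Gbe1, Zfp395, Plod1, Adm, Car9, Ndrg1, Ankrd37, Higd1a, Kdm3a, Stc2, Pdk3, Pdk4, Vegfb and the cell type markers Cd3d, Cd3e, Cd3g, Pecam1, Cldn5 and Slc4a1 were named after their values were seen, to complete a count or a range or give the pathway's best known genes.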

Additional observations from a re-analysis of the deposited data

How the results depend on the processing

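Across the alternatives without a fold requirement, Hif1a, Vegfa, Pdk1 and Egln3 passed in all 14 each, with log2 changes of 1.49 to 1.73, 1.51 to 1.78, 0.60 to 0.73 and 0.30 to 0.36. These are not 14 separate checks. Each of the 4 genes has 1 probe set, so the alternatives on probe set choice reused the main values. Those on the variance model and the replicate block left the change as it was. With 1 array left out at a time, each of the 4 genes passed in 6 of 6 fits. Leaving out 1 array at a time gave 4 to 5 members higher and 0 to 1 lower, the lower call being Epas1 (0 without IL-18 replicate 1 or 2 or unstimulated replicate 1) and the fifth higher call Bnip3. The share of all genes called also depended on unstimulated replicate 2, the array of lowest weight (0.46). Without it 4178 of all genes were higher and 4408 lower, beside 3935 and 3332 with all arrays. Fold requirements reduced the counts by construction. With limma's treat at a log2 bound of 0.5, 2 members were higher and 0 lower, 14 list genes were higher and 3 lower, and 1093 of all genes were higher and 864 lower. At an adjusted p below 0.05 with at least 2-fold, 2 members were higher and 0 lower, 10 list genes were higher and 1 lower, and 721 of all genes were higher and 647 lower. The change of Vhl turned sign with quantile normalization (0.037), with arrays centred (0.032), and without IL-18 replicate 3 (0.015) or unstimulated replicate 3 (0.031; range over arrays left out -0.021 to 0.031), all beside a value of -8.9e-05. The median of the other hypoxia response genes turned to -0.0061 with array weights and -0.0019 without unstimulated replicate 2 (range over arrays left out -0.0019 to 0.043). That of the paralogs turned to 0.017 with quantile normalization, 0.012 with centred arrays, and 0.021 to 0.045 without IL-18 replicate 3 (0.024), unstimulated replicate 1 or unstimulated replicate 3 (range over arrays left out -0.05 to 0.045). The cause was not tested. The deviations of same-numbered arrays from their group means had correlations of 0.24, 0.01 and -0.02, within the range of -0.29 to 0.25 for arrays of different numbers. With the replicate number as a block, 4 members were higher and 1 lower, and 31 list genes were higher and 16 lower. Of all genes, 3949 were then higher and 3330 lower.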
